A study of Homo sapiens with 3 samples.

Results

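The forkhead genes encode transcription factors that share a winged-helix DNA-binding domain, and they were examined here for accessible chromatin in hCMEC/D3 cells. Members were the protein-coding genes of a GRCh38 gene table whose symbols begin with FOX, a letter from A to S and a digit. There were 51 of them among the 19866 protein-coding genes located on the 24 main chromosomes. FOXL2NB meets the letter of that rule but is named as the neighbour of FOXL2 and is no forkhead gene, so it was left out. The cells are an immortalized line of human brain microvascular endothelium. Per the labels they were plated on collagen, grown to confluence and used at passages 4 to 6, with no treatment and no second genotype. The values below come from the 1 ATAC-seq library, replicate 2. ATAC-seq marks accessible DNA by the cuts of the Tn5 transposase. A further 2 RNA-seq libraries of the line were not analysed here, because the tables at hand do not link their transcripts to genes.

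Most forkhead proteins bind DNA as monomers at a short A-rich core, and some can engage closed chromatin. The FOXO proteins are held in the cytoplasm when insulin and growth factor signalling through AKT is active, and enter the nucleus when it is low. FOXF2, FOXQ1 and FOXC1 are known from brain vessels, FOXF2 and FOXC1 also from pericytes and meninges, whereas FOXO1 and FOXP1 are used by many tissues. Many other members are restricted to 1 organ or embryonic layer.

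The library held 22188172 tags after removal of duplicates, from which 106415 broad peaks had been called. Each peak has a length and a pileup, the number of extended tags stacked on it as a mean over the region. It also has a fold, the ratio of pileup to a local background from the same library, likewise a mean over the region. Gene ends were taken as the stretches up to 1 kb to each side of the first and the last base of the gene, and a peak touching them by 1 bp was counted as an end peak. With 1 library there is no replicate check on any difference between genes, and no test was made. A low pileup may mean fewer cells with open DNA or less cutting per cell, and in a bulk library these cannot be told apart. Ends of all 11 endothelial marker genes examined carried a peak, among them CDH5 with 62.65 tags and PECAM1 with 46.83, though ERG had 10.98 and VWF 13.15. The median over the 11 was 38.57 tags, against 45.75 over the protein-coding genes that had an end peak. End peaks lay at 4 of 5 mural, 3 of 6 epithelial, 4 of 6 neural and glial, 3 of 5 blood and 2 of 4 hepatocyte genes, where the share over protein-coding genes was 73.3%. Of the 3 epithelial genes, the neighbours KRT8 and KRT18 shared 1 highest end peak of 77.39 tags. Of the hepatocyte genes, ALB and TTR had none, whereas APOA1 had 54.80 tags and SERPINA1 24.79. End peaks were not compared with expression.

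Of the 51 forkhead genes, 39 had an end peak, 76.5% (95% Wilson interval over genes 63.2% to 86.0%), against a background of 73.3% of protein-coding genes. A peak inside the gene or within 50 kb of it was found for 49 of 51, against 95.5%. By presence of a peak at a gene end or within 50 kb the family thus stood near the background. The pileup of the peaks was lower. The highest end peak of each gene had a median pileup of 31.68 tags over the 39 members (95% order-statistic interval 19.22 to 42.11), whereas the 14567 protein-coding genes that had one gave 45.75. Only 9 of the 39 lay above that protein-coding median, and 11 lay in its lowest 10%, below 17.4 tags. Median peak length was 835 bp (538 to 1374 bp) against 1058 bp, and median fold 3.58 against 5.02. The local background was lower as well, with a median of 5.86 tags against 7.88.

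Stricter peaks lowered the count of forkhead genes more than that of other genes. Restricting the list to peaks whose −log10 q reached 5 left an end peak at 26 of 51 members (51.0%, interval 37.7% to 64.1%), against 67.2% of protein-coding genes. Peaks of at least 4-fold were found at the ends of 14 of 51 (27.5%), against 56.4%. These 14 were FOXA3, FOXB1, FOXD1, FOXJ1, FOXJ2, FOXJ3, FOXK2, FOXN2, FOXN3, FOXO3B, FOXO4, FOXO6, FOXP4 and FOXR1. The RefSeq promoter table gives a window from 250 bases before to 50 after the annotated start for 40 members. Here any called peak counted, without a further limit on q or fold. A peak overlapped that window in 19 of the 40 (47.5%, Wilson interval 32.9% to 62.5%), against 67.0% of 15842 protein-coding windows.

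**Figure D1:**
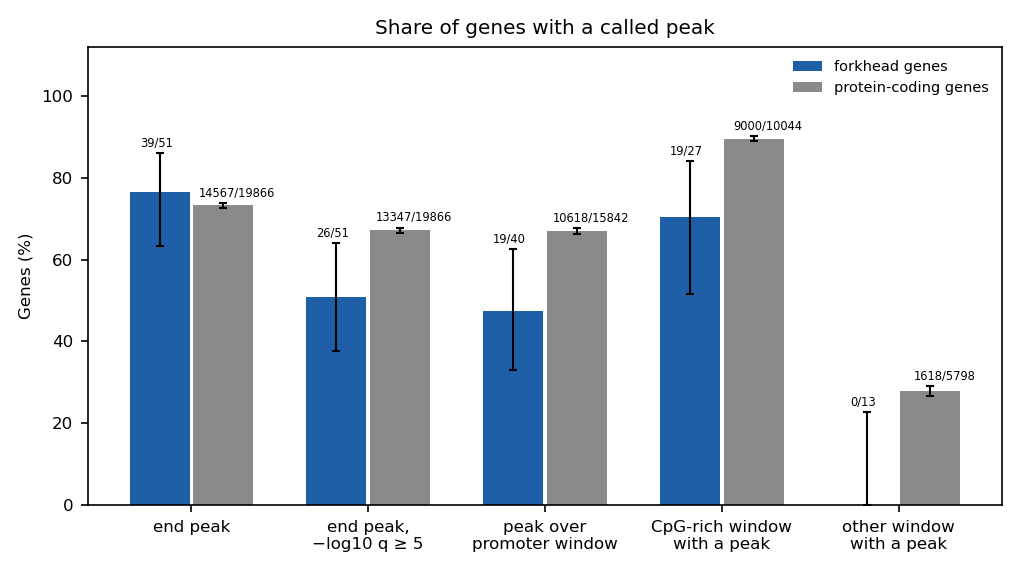
Share of genes with a called peak, in percent, for forkhead genes (blue) and all protein-coding genes (grey), by 5 criteria; error bars are 95% Wilson intervals over genes and the counts stand above the bars. The shares with any end peak were 76.5% and 73.3%, whereas the shares with a peak over the promoter window were 47.5% and 67.0%.

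The CpG content of the forkhead windows was not the lower one. Windows with a GC content of at least 50% and an observed to expected CpG ratio of at least 0.6 were called CpG-rich, and 27 of the 40 forkhead windows (67.5%) were, against 63.4% of protein-coding windows. Forkhead windows held a median of 25.5 CpG and protein-coding windows 22. Of the 27 CpG-rich forkhead windows, 19 carried a peak (70.4%, interval 51.5% to 84.1%), against 89.6% of protein-coding ones. The 8 without a peak belonged to FOXF2, FOXI2, FOXI3, FOXB2, FOXE1, FOXL3, FOXD4 and FOXR1. None of the 13 other forkhead windows carried a peak (interval up to 22.8%), against 27.9% of protein-coding ones.

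Forkhead genes are short, with a median of 4896 bp against 24469 bp over protein-coding genes, and short genes had an end peak in a smaller share. In 4 equal groups of protein-coding genes by length, 32 of the 51 members fell into the shortest, up to 8679 bp. There 23 of the 32 (71.9%) had an end peak, against 59.3% of the genes of that group. Their median pileup was 20.36 tags against 46.06. The other groups held 7, 3 and 9 members, with an end peak at 6, 1 and 9. In the longest group, above 65 kb (65628 bp), the median pileup of those 9 members was 33.05 tags against 42.72.

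**Figure D2:**
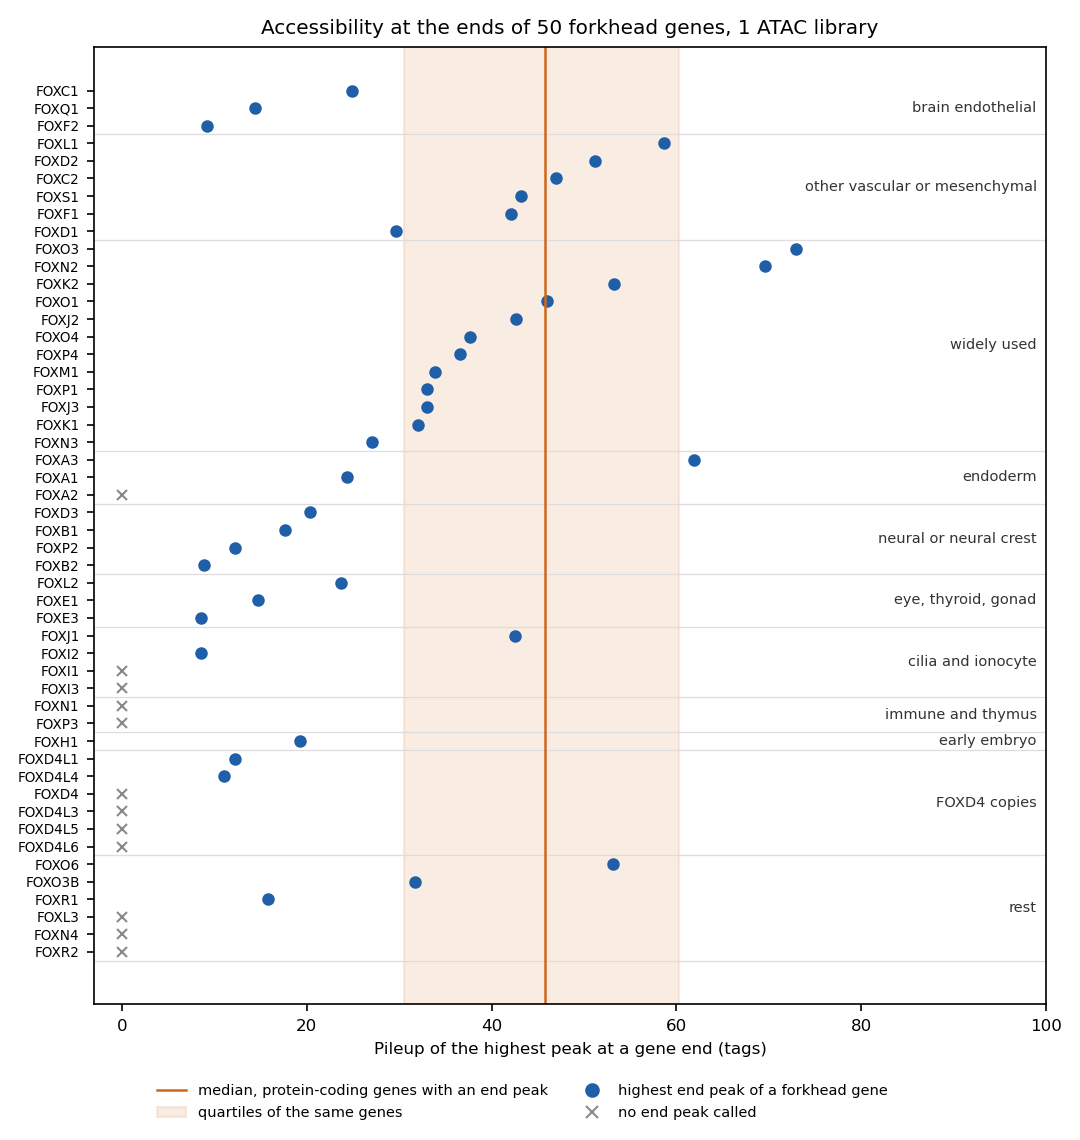
Pileup of the highest end peak (tags) for 50 of the 51 forkhead genes, grouped by known role; crosses at 0 mark genes with no end peak, the line is the median (45.75 tags) and the band the quartiles (30.53 to 60.24 tags) across coding genes that had an end peak. The 3 brain endothelial genes lie left of the band, and 11 of the 12 widely used genes lie at or right of its lower edge, FOXN3 with 27.01 tags being the exception.

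FOXF2, FOXQ1 and FOXC1, the brain endothelial members, all had an end peak, but a low one. FOXF2, a factor of mesenchyme and of brain vessels, had 1 end peak, on chromosome 6 from 1390274 to 1390669, 396 bp long, with a pileup of 9.17 tags, a fold of 2.77 and a −log10 q of 1.69. The lowest pileup called in the whole list was 8 tags. This placed FOXF2 36th among the 39 members with an end peak and above 0.75% of the protein-coding genes that had one. The centre of the peak lay 895 bp after the annotated start, and the promoter window had no peak. The FOXF2 peak also lay at ends of the noncoding genes FOXF2-DT and MIR6720.

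FOXQ1, known in brain endothelium and in epithelia, had 3 end peaks of 12.64, 12.11 and 14.40 tags. The first, from 1311174 to 1312170, covered the whole promoter window with a fold of 3.05. By its highest end peak FOXQ1 was 31st of 39, above 6.66% of protein-coding genes. FOXC1, needed for development of vessels, meninges and the eye, had 1 end peak from 1609660 to 1610381, with 24.89 tags, a fold of 3.90 and a −log10 q of 8.14. It covered the promoter window, and FOXC1 was 23rd of 39, above 18.1% of protein-coding genes. Of the 3 genes, FOXC1 alone kept an end peak once −log10 q had to reach 5, and none did once the fold had to reach 4.

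The promoter windows of these 3 genes are printed because they share a high CpG content and differ in whether a peak covers them. FOXF2 (chr6:1389326-1389625, plus strand) has 26 CpG in 300 bases and a GC content of 71%. FOXQ1 (chr6:1311848-1312147, plus strand) has 35 and 74.7%, and FOXC1 (chr6:1609665-1609964, plus strand) has 40 and 72.7%. Sequences run 5′ to 3′ and are from RefSeq, build GRCh38.p14, and capitals mark bases covered by a called peak. The FOXF2 window is therefore in lower case throughout, and the other windows are in capitals throughout.
FOXF2: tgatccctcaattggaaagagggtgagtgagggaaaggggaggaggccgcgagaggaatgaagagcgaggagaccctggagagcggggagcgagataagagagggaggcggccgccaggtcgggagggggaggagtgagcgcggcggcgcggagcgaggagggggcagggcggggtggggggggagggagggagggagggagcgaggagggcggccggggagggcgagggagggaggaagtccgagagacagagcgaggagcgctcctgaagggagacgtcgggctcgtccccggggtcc
FOXQ1: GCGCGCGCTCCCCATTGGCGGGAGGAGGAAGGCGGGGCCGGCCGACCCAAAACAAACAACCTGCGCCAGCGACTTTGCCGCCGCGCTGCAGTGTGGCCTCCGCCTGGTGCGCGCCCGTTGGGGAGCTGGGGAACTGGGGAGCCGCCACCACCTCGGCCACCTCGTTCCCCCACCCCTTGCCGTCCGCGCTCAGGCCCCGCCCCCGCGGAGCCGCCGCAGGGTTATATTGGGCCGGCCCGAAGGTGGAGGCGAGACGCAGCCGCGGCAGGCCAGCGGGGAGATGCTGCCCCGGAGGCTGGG
FOXC1: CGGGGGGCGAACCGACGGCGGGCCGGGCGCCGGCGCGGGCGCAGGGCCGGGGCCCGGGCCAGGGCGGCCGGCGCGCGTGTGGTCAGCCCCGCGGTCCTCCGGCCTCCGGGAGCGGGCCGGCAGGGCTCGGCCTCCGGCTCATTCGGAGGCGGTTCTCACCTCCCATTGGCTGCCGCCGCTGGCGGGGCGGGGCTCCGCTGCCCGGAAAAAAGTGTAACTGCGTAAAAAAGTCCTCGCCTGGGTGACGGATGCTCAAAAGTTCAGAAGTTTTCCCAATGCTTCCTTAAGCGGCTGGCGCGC
Each of these windows held a GC box, GGGCGG on either strand, and so did 70.0% of the 40 forkhead windows and 58.5% of the protein-coding windows.

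The 3 genes are neighbours on 6p25, with 74.8 kb between FOXQ1 and FOXF2 and 214.3 kb between FOXF2 and FOXC1. From 50 kb before FOXQ1 to 50 kb after FOXC1, 401.8 kb in all, 29 peaks were called. Their median pileup was 14.40 tags and their median length 347 bp, against 21.57 tags and 452 bp over all 106415 peaks. No peak of the region reached 1000 bp, and peaks covered 3.08% of it. The highest did not lie at a forkhead gene: it was on chromosome 6 from 1325542 to 1326081, inside the noncoding gene FOXF2-DT, with 45.06 tags and a fold of 8.87. Another inside FOXF2-DT, from 1381804 to 1382231, had 21.89 tags, above the end peak of FOXF2. Counting peaks inside each gene and within 50 kb gave 9 for FOXQ1, 7 for FOXF2 and 6 for FOXC1, where the median was 8 over the family and 9 over protein-coding genes. With 100 kb on either side the counts became 13, 17 and 12, against medians of 15 over the family and 16 over protein-coding genes, so that FOXF2 had the most of the 3 and lay above both medians. None of the 3 genes had a peak inside and away from its ends. They are 2661, 6028 and 3983 bp long, and of the protein-coding genes of up to 8679 bp 10.7% had such a peak.

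FOXF1 and FOXC2, close relatives of FOXF2 and FOXC1, form a second cluster with FOXL1, on 16q24, with higher and longer peaks. FOXF1, a factor of lung and gut mesenchyme and of lung vessels, had an end peak of 42.11 tags and 1996 bp, on chromosome 16 from 86509166 to 86511161. FOXC2, a factor of lymphatic vessels and their valves, had one of 47.00 tags and 2308 bp, from 86565718 to 86568025. FOXL1, known from gut mesenchyme, had one of 58.63 tags and 1493 bp, from 86577383 to 86578875. FOXF1 thus stood at 42.11 tags where FOXF2 had 9.17, and FOXC2 at 47.00 where FOXC1 had 24.89. The peaks of FOXF1 and FOXC2 also lay at ends of the noncoding genes FENDRR and FOXC2-AS1.

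Over the 173 kb from 50 kb before FOXF1 to 50 kb after FOXL1, 16 peaks were called, with a median pileup of 38.86 tags and a median length of 636 bp. Peaks of at least 1000 bp numbered 5, and peaks covered 8.69% of the region. Fold ran the other way: its median was 2.91 at 16q24 and 4.20 at 6p25. The median local background was 8.95 tags at 16q24 and 2.37 at 6p25, which is the lowest value the caller allowed. That lowest value depends on the effective genome size set for the caller, here its mouse preset, and the effect on fold and q was not tested. The part of the local background in the difference of pileup was not tested either.

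**Figure D3:**
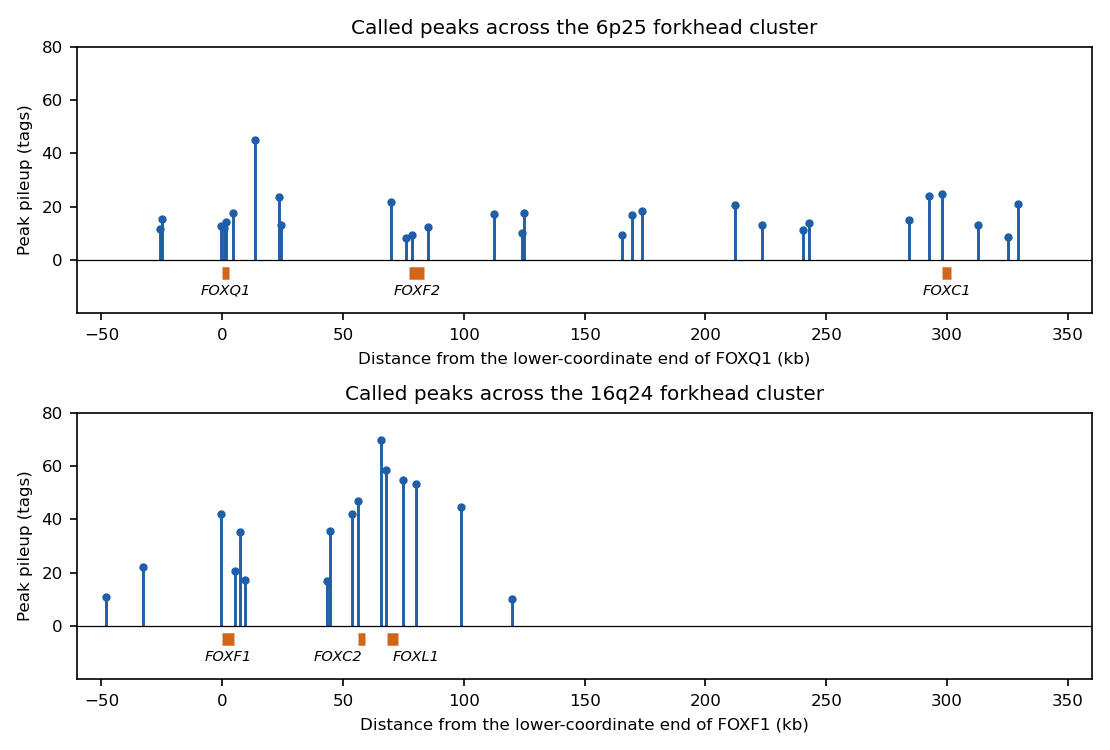
Peaks called across the forkhead clusters of 6p25 (top) and 16q24 (bottom); each stem is 1 peak, its height the pileup in tags, on the same kb and tag scales, and the bars below the axis are the forkhead genes. The highest peak is 45.06 tags at 6p25, away from the 3 genes, and 69.79 tags at 16q24, between FOXC2 and FOXL1.

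The remaining vascular or mesenchymal members also had end peaks, so that all 6 outside 6p25 did, with a median of 45.08 tags. FOXD2 had 51.21 tags. FOXD1, known from kidney stroma and retina, had 29.67. FOXS1, known from pericytes, had 43.15 tags in a peak of only 240 bp, which also lay at an end of DUSP15. Each of the 6 kept an end peak when −log10 q had to reach 5, as did 67.2% of protein-coding genes.

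All 12 widely used members had an end peak, from 27.01 to 72.91 tags with a median of 37.14, and all 12 kept one when −log10 q had to reach 5. Over protein-coding genes these shares were 73.3% and 67.2%. A peak covered part or all of the promoter window in 9 of the 10 that have one in the table. The share was 67.0% over protein-coding windows and 89.6% over the CpG-rich ones. The exception was FOXJ3, the only 1 of the 10 whose window was not CpG-rich. Its end peak of 33.00 tags was centred 949 bp after the annotated start. FOXO3, the FOXO factor tied to stress resistance, had the highest end pileup of the family, 72.91 tags, with a second end peak of 61.11 tags. Its fold was only 2.52, and the local background computed from this pileup and fold was 28.3 tags. FOXN2 followed with 69.54 tags. FOXK2, with FOXK1 a factor of metabolic gene control, had 53.24 tags and a fold of 7.17.

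FOXO1, which restrains growth and metabolism of endothelial cells, was 9th of 39. Its end peak, on chromosome 13 from 40665946 to 40667080, had 46.02 tags, a fold of 3.46 and a length of 1135 bp. That is near the middle of protein-coding genes, above 50.5% of them. FOXP1, a repressor with roles in lymphocytes, heart and brain, was 17th with 33.05 tags, a fold of 2.67 and a peak on chromosome 3 from 71582980 to 71583832, above 28.3% of protein-coding genes. A second FOXP1 end peak of 29.85 tags also lay at an end of the divergent noncoding gene FOXP1-DT. Set against the brain endothelial genes, FOXO1 had 46.02 tags and FOXP1 33.05, and the 3 genes of 6p25 had 9.17 to 24.89. By fold this order did not hold. FOXC1, at 3.90, lay above FOXO1, at 3.46, and FOXF2 and FOXQ1, at 2.77 and 3.06, lay above FOXP1, at 2.67.

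The windows of FOXO1, FOXP1 and FOXO4 are printed to show full and partial cover by a peak, with capitals for covered bases as above. FOXO1 (chr13:40666592-40666891, minus strand) was covered over its 300 bases and held 5 copies of GGGCGG. FOXP1 (chr3:71583679-71583978, minus strand) was covered over 154 bases, on the side toward the gene. FOXO4 (chrX:71095601-71095900, plus strand) was covered over 272 bases. FOXO4 was the only member of the 40 with the forkhead core TGTTTAC on either strand, read as GTAAACA at position 274 of its window and inside the peak. The core was present in 2.61% of protein-coding windows.
FOXO1: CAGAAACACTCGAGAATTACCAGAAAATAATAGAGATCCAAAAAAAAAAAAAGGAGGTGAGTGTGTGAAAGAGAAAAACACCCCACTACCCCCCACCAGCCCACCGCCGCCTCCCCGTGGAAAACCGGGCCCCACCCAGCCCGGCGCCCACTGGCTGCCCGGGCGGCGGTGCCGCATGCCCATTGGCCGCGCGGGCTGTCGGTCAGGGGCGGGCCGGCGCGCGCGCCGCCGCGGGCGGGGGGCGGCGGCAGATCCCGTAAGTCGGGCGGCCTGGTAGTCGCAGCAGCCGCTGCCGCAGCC
FOXP1: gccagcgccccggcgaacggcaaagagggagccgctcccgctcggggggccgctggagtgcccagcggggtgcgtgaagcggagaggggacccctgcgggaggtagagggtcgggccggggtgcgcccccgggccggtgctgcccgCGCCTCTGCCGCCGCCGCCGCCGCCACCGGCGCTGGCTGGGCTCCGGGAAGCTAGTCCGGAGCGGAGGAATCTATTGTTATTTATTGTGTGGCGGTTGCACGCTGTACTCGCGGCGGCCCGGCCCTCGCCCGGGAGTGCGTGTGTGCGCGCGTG
FOXO4: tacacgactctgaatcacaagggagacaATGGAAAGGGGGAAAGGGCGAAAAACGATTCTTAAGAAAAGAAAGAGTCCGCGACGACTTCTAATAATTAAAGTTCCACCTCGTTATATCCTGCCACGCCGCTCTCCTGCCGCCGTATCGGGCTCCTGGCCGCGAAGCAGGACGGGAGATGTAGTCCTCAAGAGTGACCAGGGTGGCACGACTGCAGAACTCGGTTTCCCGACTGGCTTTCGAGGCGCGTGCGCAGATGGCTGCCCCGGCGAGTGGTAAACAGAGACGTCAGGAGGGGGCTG
A match to such a core describes the letters in this window and is no sign of binding.

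By raw number of peaks FOXP1 stood first in the family. It had 63 peaks inside or within 50 kb, the most of any member and above 99.95% of protein-coding genes. Of these, 58 lay inside the gene and away from its ends. FOXN3 had 31 peaks, FOXO3 25, FOXJ3 19 and FOXK1 18. FOXO1 shared the next place with FOXK2 and FOXO6, at 17 each. These are long genes, so the number was also taken per 100 kb of gene. FOXP1 had 9.22 inside peaks per 100 kb and FOXO1 9.01, compared with a median of 3.70 (quartiles 1.54 and 6.75) over the 6258 protein-coding genes of at least 50 kb. FOXO3 had 14.4, FOXK2 11.8 and FOXK1 10.1, above 97.8%, 94.5% and 91.1% of those genes, and FOXP1 and FOXO1 lay above 87.7% and 86.8%. Per length FOXP1 thus came after FOXO3, FOXK2 and FOXK1 among the long members.

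**Figure D4:**
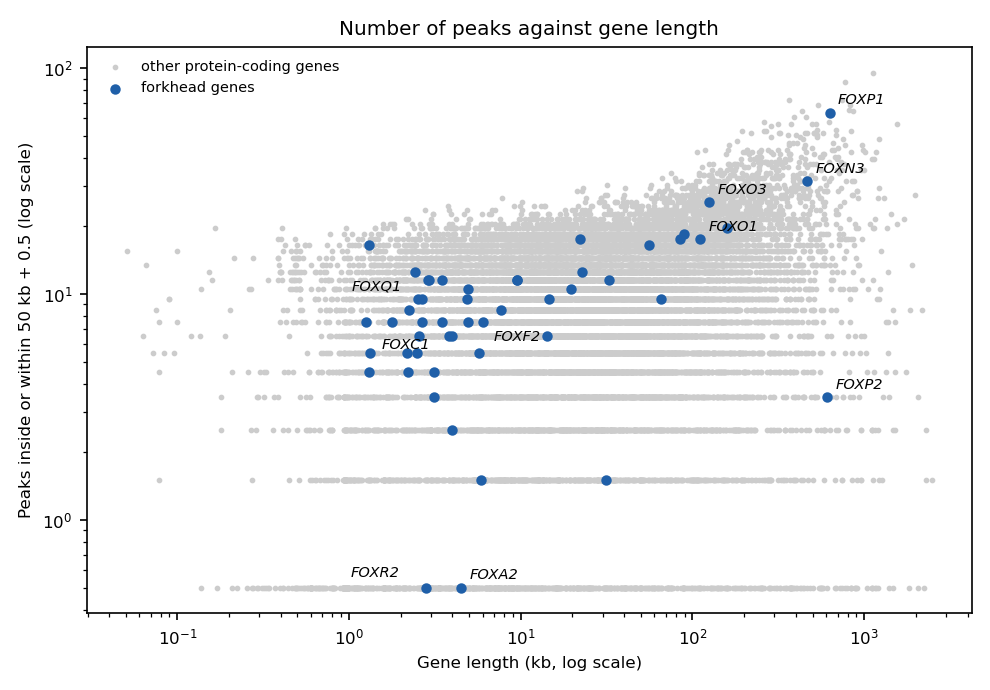
Number of peaks inside or within 50 kb of each gene, plus 0.5, against gene length in kb, both on log scales, for forkhead genes (blue) and other protein-coding genes (grey). FOXP1 (63 peaks) is near the upper edge for its length, FOXP2 (3 peaks) has few for its length, and FOXF2, FOXQ1 and FOXC1 (7, 9 and 6 peaks) are in the mass of short genes.

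The inside peaks of FOXP1 had a median pileup of 20.16 tags, from 9.64 to 54.49, where the median over all called peaks was 21.57. Of the 58, 13 were higher than the gene's own end peak. The highest was on chromosome 3 from 71537140 to 71537729, with a fold of 5.24. By distance from the annotated start, 25 lay in the first part of the gene, 9 in the middle and 24 in the last, each part being an equal stretch. FOXO1 differed: its 10 inside peaks had a median of 20.24 tags, and none was higher than its end peak. FOXK1 was the opposite case, with an end peak of 32.09 tags and 8 of its 9 inside peaks above that, up to 79.74 tags. FOXN3 had 8 of 27 inside peaks above its end peak of 27.01 tags, the highest of them at 80.26.

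FOXP2, a factor of neurons and close relative of FOXP1, is of like length, 607.4 kb against 629.3 kb. It had no peak inside and away from its ends, where 88.6% of the protein-coding genes of at least 50 kb had one. Among the 385 protein-coding genes within 1.5 times its length, the median was 11 inside peaks, and 39 (10.1%) had none. Its end peaks were low, at 12.19 and 11.49 tags. FOXP1 and FOXP2 thus differed as 58 to 0 in inside peaks in the same library.

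**Figure D5:**
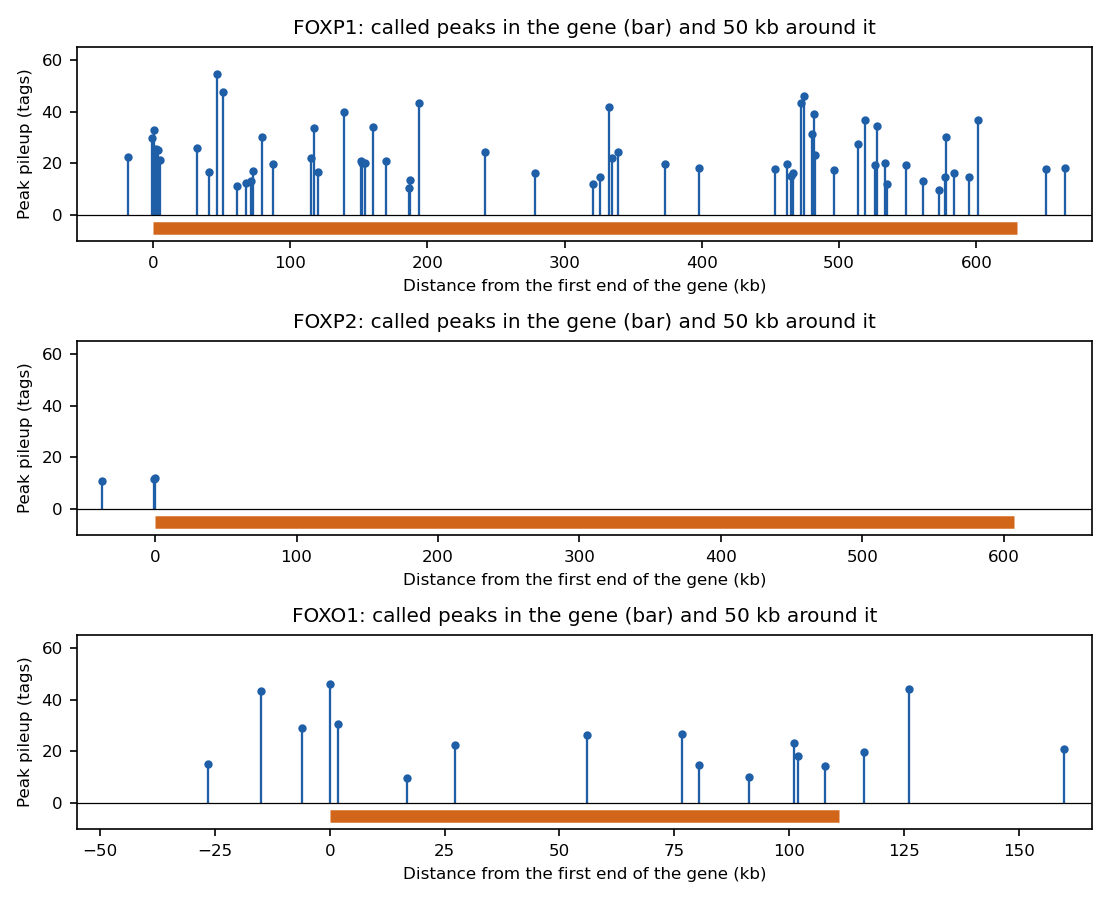
Peaks in and around FOXP1, FOXP2 and FOXO1; each stem is 1 peak at its distance in kb from the first end of the gene, with its pileup in tags as height, and the bar marks the gene. FOXP1 has 58 peaks inside it and FOXP2 none, and in FOXO1 the highest stem is the end peak of 46.02 tags.

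Members restricted to other lineages had end peaks of low pileup or none, with the exceptions given below. In the neural or neural crest group all 5 members had an end peak, but with 8.90 to 20.36 tags. FOXB2 had 8.90 tags, FOXB1 17.66 and FOXD3, a neural crest factor, 20.36. By fold FOXB1 was not low, at 5.53 against a median of 5.02 over protein-coding genes that had an end peak. FOXB2 and FOXD3 had folds of 2.93 and 3.24. In the eye, thyroid and gonad group FOXE3 of the lens had 8.54 tags, FOXE1 of the thyroid 14.70 and FOXL2 of the ovary 23.66. The FOXL2 peak also lay at an end of FOXL2NB. FOXH1, a partner of SMAD proteins in the early embryo, had 19.22 tags. FOXI2 had 8.50 tags, the lowest end peak of the family, and FOXI1 and FOXI3, factors of ionocytes and of the ear, had none.

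FOXJ1, FOXA3 and FOXO6 were exceptions with end peaks inside or above the quartiles of protein-coding genes. FOXO6, known mainly from brain, had 53.19 tags. FOXJ1, the factor of motile cilia, had 42.49 tags in a peak that also lay at an end of RNF157. FOXA3, a factor of liver and gut, had 61.86 tags, the third highest of the family, in a peak that also lay at an end of SYMPK. Such sharing with another protein-coding gene held for the highest end peak of 6 members, the others being FOXA1 with TTC6, FOXM1 with RHNO1, FOXL2 and FOXS1. Without shared peaks 33 of 51 members (64.7%, interval 51.0% to 76.4%) had an end peak, against 55.9% of protein-coding genes under the same limit. Their median was 29.67 tags, against 41.4.

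An end peak was absent at 12 members. FOXN1, the factor of thymic epithelium, had none but 2 peaks inside and 9 within 50 kb, 11 in all. FOXD4L6, 1 of 6 near-identical FOXD4 copies whose single values are uncertain, had 8 peaks within 50 kb, FOXI1 and FOXP3 had 6 each, and FOXD4 and FOXL3 had 5 each. FOXP3 marks regulatory T cells. FOXI3 and FOXN4 had 1 each. Only FOXA2, a pioneer factor of endoderm, and FOXR2 had no peak inside or within 50 kb. At these members open DNA may lie below what the depth and the q threshold allow to be called.

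Most end peaks lay at the annotated start, in a share near that of other genes. Of the 29 members with both a promoter window and an end peak, 25 had an end peak centred within 1500 bp of the start (86.2%, interval 69.4% to 94.5%), against 89.9% of protein-coding genes. Of their 44 end peaks, 32 were centred there (72.7%), against 75.2%. FOXB1, FOXD4L1 and FOXR1 had an end peak only farther away, centred 2259, 4181 and 8714 bp after the start. The remaining one was FOXP2, whose annotated window lies inside the gene, far from either end. The 50 kb windows of neighbouring members overlap, as at FOXC2 and FOXL1 or at FOXE3 and FOXD2. The 518 assignments of a peak to a member involved 497 different peaks, of which 18 were counted for more than 1 member.

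Genes that act with the FOXO factors were listed for comparison. Of 10 genes that feed into FOXO control, among them AKT1, PDPK1 and INSR, 10 had an end peak, with a median of 46.15 tags. The 4 genes of 14-3-3 proteins, which hold phosphorylated FOXO in the cytoplasm, all had one, with a median of 64.91. All 16 genes used as FOXO targets had one, with a median of 61.89 tags, from 20.47 at IRS2 to 106.73 at SOD2. In the target list, the endothelial genes KLF2 and ANGPT2 had 68.97 and 33.15 tags. The protein-coding background was 73.3% with a median of 45.75 tags.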

How the data were processed

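One ATAC-seq library of hCMEC/D3 cells was used, grouped by its title. Per the file headers, the authors called broad peaks with MACS 2.2.7.1 on this library without a control, in single-end mode, using a shift of -100 bp, an extension of 200 bp and q thresholds of 0.05 and, for broad regions, 0.1. The header gives 31532245 tags, 22188172 after filtering, and an effective genome size of 1870000000 bp, the caller's mouse preset. The deposited list gives for each peak a length, a pileup signal in tags not scaled to depth, the fold as a ratio over local background, and −log10 p and q values. Per the submitters' processing notes, Bowtie2, SAMtools 1.13 and Picard were used, and GRCh38 and mm10 are named without a role. Annotated starts shifted by 2 to 50 kb fell in a peak for at most 3.98%, against 65.4% unshifted, so GRCh38 gene tables were used. How reads matching several places were treated is not given in the sources used here.

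Gene extents came from a RefSeq table of GRCh38.p14; 171 protein-coding entries on patches and other scaffolds were dropped. Local background was computed as (pileup + 1) / fold - 1, which is approximate because pileup and fold are region means. Peaks were placed with Python 3.11.15 and pandas 2.3.3, tested on simulated peaks; Wilson intervals are from statsmodels 0.14.6. Intervals run over genes and do not cover library-to-library error. The promoter table lists 15842 of the protein-coding genes. Genes named are FOXF2, FOXQ1, FOXC1, FOXO1 and FOXP1, the 5 highest and 5 lowest by end pileup, the 5 with most peaks, those without an end peak, and others given as examples of a role. The members and lists were chosen with earlier results of these data known. The values of 1 member are counted in the totals and not reported here singly. Alternatives were other windows, peak filters, overlaps and membership rules.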

Additional observations from a re-analysis of the deposited data

How the results depend on the processing

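Of 39 alternative values for the family, 30 stayed within the 95% interval of the reported value. The share of members with an end peak, 76.5%, moved to 51.0% when −log10 q had to reach 5, to 27.5% when the fold had to reach 4 and to 47.5% for promoter windows. For protein-coding genes these settings gave 67.2%, 56.4% and 67.0%. The median number of peaks per member, 8, became 4 with 10 kb outside, 15 with 100 kb, 1 for the gene and 1 kb around it, 5 under the q limit, 4 under the fold limit and 6 outside the gene only. For protein-coding genes the first 5 of these gave 3, 16, 2, 7 and 6. The share and the median pileup and length kept within their intervals under narrower and wider gene ends, a longer overlap, other membership rules and without shared peaks. Over the 10 kb, 100 kb, q and fold settings FOXP1 had 42 to 69 peaks, FOXO1 10 to 22, FOXQ1 4 to 13, FOXF2 3 to 17 and FOXC1 2 to 12. Counting only peaks outside the gene, and removing peaks shared with another coding gene, were added after the data had been seen. No paired analysis was possible because a single ATAC library was used. A pileup near 8 tags is at the limit of the list.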

Other observations

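The FOXD4 copies, 6 near-identical genes of which 5 are on chromosome 9, had few peaks: FOXD4L1 had an end peak of 12.24 tags and FOXD4L4 one of 11.07 tags, and the other 4 had none. None of their 6 promoter windows carried a peak, and only that of FOXD4 was CpG-rich. Over protein-coding windows 67.0% carried one, and 27.9% of those that were not CpG-rich. Reads from such near-identical copies may map to several of them, so the values of single copies are uncertain. The same holds for FOXO3B, a copy of FOXO3, which had an end peak of 31.68 tags that also lay at an end of ZNF286B. FOXO6, a FOXO member known mainly from brain, had 3 end peaks, the highest of 53.19 tags.

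Of 6 motifs searched on both strands of the promoter windows, the ETS core CCGGAAG was present in 1 of 40 forkhead windows, that of FOXR1, and in 14.2% of protein-coding windows. TATAAA was present in 6 of 40 (15.0%) and in 9.63%, CCAAT in 11 of 40 (27.5%) and in 36.4%, and the AP-1 site TGANTCA in 3 of 40 and in 5.75%. Of protein-coding windows with CCGGAAG 92.8% carried a peak, and of those without it 62.7%. For the GC box, present in 70.0% of forkhead and 58.5% of protein-coding windows, these shares were 84.1% and 43.0%. They were 67.8% and 66.6% for CCAAT, and 37.0% and 70.2% for TATAAA. For TGANTCA they were 52.4% and 67.9%, and for the forkhead core 53.9% and 67.4%. The part of any motif in the share of forkhead windows with a peak was not tested. These are counts of letters in the windows, and neither a match nor its absence says anything about binding of a factor.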
